A study of Mus musculus with 7 samples.

Results

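Mast cells and basophils are effector cells of allergic and antiparasitic responses that store ready-made proteases and histamine in granules and release them when antigen cross-links IgE on the receptor FcεRI. Both arise from bone marrow progenitors, and GATA1, GATA2 and MITF are among the factors known to drive their genes, while C/EBPα, in mouse progenitors, is known to favour the basophil over the mast cell fate. The 8 genes described here, of 19938 measured, encode granule proteases (Cpa3, Cma1, Tpsb2, Mcpt8, Prss34), subunits of the IgE receptor (Fcer1a, Ms4a2) and the enzyme that makes histamine (Hdc). They were chosen by name for their known expression in mast cells and basophils, with the difference of Cpa3 between the genotypes on these arrays already known. Their differences between genotypes are therefore given as a description, without a test. Each of the 8 had exactly 1 probe set annotated to it alone.

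Gene expression was measured on Affymetrix Mouse Gene ST arrays, with probes spread over each transcript, in HSCs of female C57BL/6 mice. The Cebpa Δ/Δ group (4 arrays) carried Cebpa flox/flox together with the Mx1Cre transgene, whose promoter responds to interferon in many cell types, and the Cebpa fl/fl group (3 arrays) carried Cebpa flox/flox alone. All mice of both genotypes received pIC, an inducer of interferon, and marrow was taken at day 18. No untreated mice were analysed here. Cells were first enriched for cKit and then sorted as Lin-, Sca1+, cKit+, CD150+ and CD48-. The design text counts 4 and 3 mice, whereas the labels speak of triplicates for each genotype, and no label states whether the mice were processed together.

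Cebpa, the targeted gene, measured 5.11, 5.24, 5.27 and 5.27 on the log2 scale in Cebpa Δ/Δ HSCs and 5.54, 5.75 and 5.63 in Cebpa fl/fl HSCs. All Cebpa Δ/Δ arrays lay below all Cebpa fl/fl arrays, by 0.41 (SE 0.07) on average, and the exact two-sided permutation test gave p = 0.0286, the smallest that the 35 splits of 7 arrays allow. Such a lack of overlap in the lower direction was seen in 2.46% of all genes. The difference was 1.33-fold, under 1.5-fold, with adjusted p = 0.337 in limma, and the mean level of Cebpa lay at percentile 42.8 of all genes. Of 16 HSC marker genes listed, 14 were measured, and 14 of them had a mean level above that of the median gene. Array medians lay between 46.2 and 50.4 on the linear scale, and the mean correlation of an array with the others between 0.979 (Cebpa Δ/Δ 3 and Cebpa fl/fl 1) and 0.985.

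Cpa3 encodes carboxypeptidase A3, a metalloprotease stored with heparin in mast cell granules and, in mouse marrow, also transcribed in early progenitors. Its log2 values were 8.63, 8.57, 8.87 and 7.10 in Cebpa Δ/Δ HSCs, against 5.52, 6.34 and 5.05 in Cebpa fl/fl HSCs (probe set 10497451). Every Cebpa Δ/Δ array was above every Cebpa fl/fl array, with Cebpa Δ/Δ 4 the lowest of its group and Cebpa fl/fl 2 the highest of its own. On the linear scale the intensities were 397, 381, 467 and 137 in Cebpa Δ/Δ HSCs and 45.8, 80.9 and 33.1 in Cebpa fl/fl HSCs. The mean was 8.29 ± 0.81 (SD, n = 4) for Cebpa Δ/Δ HSCs and 5.63 ± 0.65 (SD, n = 3) in Cebpa fl/fl HSCs, a difference of 2.66 (SE 0.50) on the log2 scale, or 6.32-fold. This was the 15th highest difference of the 19938 genes (rank 15).

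The other granule proteases did not show this pattern, but their levels were low, where small changes are hard to see. Their mean levels lay at percentiles 14.1 (Cma1), 25.2 (Mcpt8), 26.8 (Tpsb2) and 33.3 (Prss34) of all genes. Cma1, the chymase of mouse connective tissue mast cells, measured 3.76, 3.76, 3.88 and 3.76 in Cebpa Δ/Δ HSCs and 3.76, 3.76 and 3.64 in Cebpa fl/fl HSCs. These were 3 distinct values among 7 arrays, near the bottom of the scale, and the groups overlapped, with a difference of 0.07 (SE 0.06). Tpsb2, a mast cell tryptase, measured 4.50, 4.50, 4.51 and 4.46 in Cebpa Δ/Δ HSCs and 4.88, 4.35 and 4.49 in Cebpa fl/fl HSCs. The Cebpa Δ/Δ arrays were closely spaced and lay within the Cebpa fl/fl range (difference -0.08, SE 0.12).

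Among the proteases of basophils, Mcpt8 measured 4.31, 4.80, 4.61 and 4.23 in Cebpa Δ/Δ HSCs and 4.17, 4.88 and 4.10 in Cebpa fl/fl HSCs. The highest array was Cebpa fl/fl 2 and the groups overlapped, with a difference of 0.11 (SE 0.23). Prss34, a serine protease of mouse basophils, measured 4.99, 4.87, 4.99 and 4.87 in Cebpa Δ/Δ HSCs and 4.87, 4.87 and 4.67 in Cebpa fl/fl HSCs. It took 4 distinct values on the 7 arrays, again with overlapping groups (0.13, SE 0.07).

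Fcer1a encodes the IgE-binding α chain of FcεRI, and its log2 values were 3.80, 3.96, 5.09 and 3.36 in Cebpa Δ/Δ HSCs, against 3.43, 3.77 and 3.68 in Cebpa fl/fl HSCs. A single array, Cebpa Δ/Δ 3, stood above the rest, while Cebpa Δ/Δ 4 was the lowest of all 7 (difference 0.42, SE 0.39). Ms4a2, the signal-amplifying β chain, measured 3.98, 3.56, 3.56 and 4.01 in Cebpa Δ/Δ HSCs and 3.40, 3.55 and 3.16 in Cebpa fl/fl HSCs. The groups did not overlap, though Cebpa Δ/Δ 2 and 3 lay only just above Cebpa fl/fl 2, and the difference was 0.41 (SE 0.16), or 1.33-fold. Both genes were low among all genes by mean level (percentiles 15.7 and 12.2). Hdc, histidine decarboxylase, measured 4.59, 4.67, 4.76 and 4.75 in Cebpa Δ/Δ HSCs and 4.56, 5.41 and 4.73 in Cebpa fl/fl HSCs. Its highest array was Cebpa fl/fl 2 and the groups overlapped, with a difference of -0.20 (SE 0.20).

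**Figure D1:**
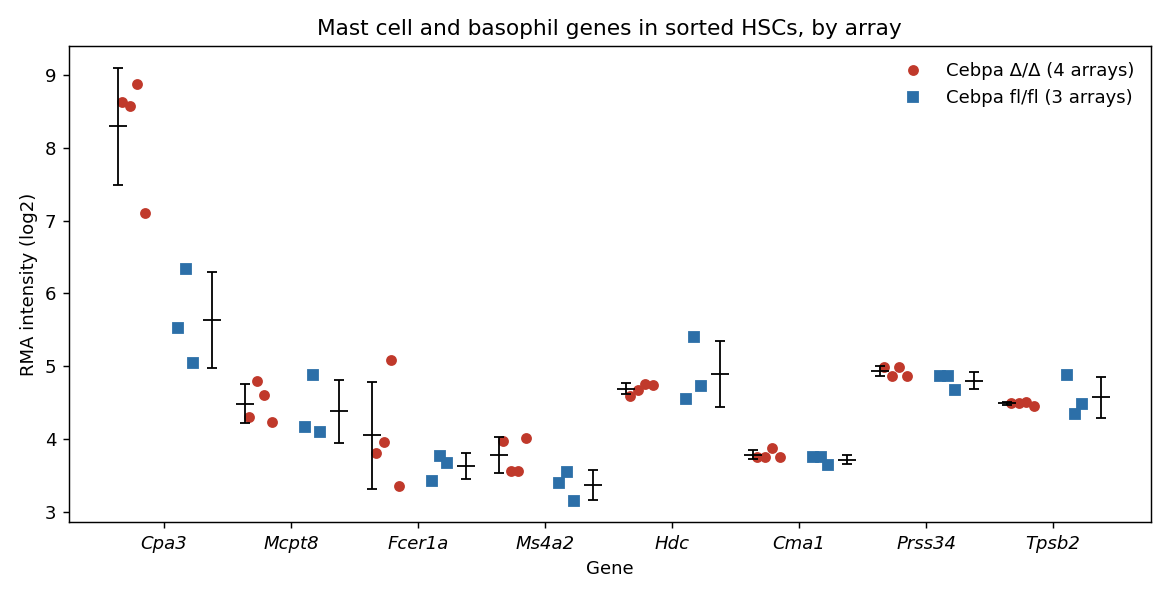
Each point is the log2 intensity of one of the 8 mast cell and basophil genes on 1 array, Cebpa Δ/Δ (n = 4) left of Cebpa fl/fl (n = 3) for each gene, and bars show the mean and SD. Cpa3 runs from 7.10 to 8.87 in Cebpa Δ/Δ HSCs and from 5.05 to 6.34 in Cebpa fl/fl HSCs, whereas the groups overlap in 6 of the other genes and nearly touch in Ms4a2.

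Read by the study's thresholds (p under 0.05 before adjustment, more than 1.5-fold), 1 of the 8 genes, Cpa3, was higher in Cebpa Δ/Δ HSCs and 0 were lower. Over all 19938 genes these thresholds were passed by 1.57% in the higher direction and by 0.617% in the lower, and 2.03% were over 1.5-fold higher at any p. The arrays of the groups did not overlap for 2 of the 8, Cpa3 and Ms4a2, both higher, beside 3.51% of all genes higher and 2.46% lower. Since Cpa3 was known to differ when the genes were chosen, nothing is read from these counts. With Benjamini-Hochberg adjustment over all genes in limma, 0 of the 19938 genes passed 0.05, while 1492 had an unadjusted p under 0.05. The median difference of the 8 was 0.12, and Cpa3 alone had a mean level above that of the median gene, 5.86. Summed on the linear scale, the other 7 genes came to between 137 and 167 in Cebpa Δ/Δ HSCs and between 126 and 160 in Cebpa fl/fl HSCs. In bulk RNA of sorted cells, more cells that carry a transcript and more of it per cell cannot be told apart.

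The bases before the start of transcription are shown for Cpa3 and for both receptor chains. These had the 3 highest differences among the 8, although the groups of Fcer1a overlapped. They were picked because each holds AGATAA, a form of the motif that GATA factors bind, so its presence in them is no result. A part of GATA factors in the differences was not tested. The sequences come from RefSeq on GRCm38.p6 and are the 250 bases before the gene's start, 5′ to 3′ on the gene's own strand, with AGATAA or its complement TTATCT in capitals.
Cpa3 (chr3:20242182-20242431, minus strand): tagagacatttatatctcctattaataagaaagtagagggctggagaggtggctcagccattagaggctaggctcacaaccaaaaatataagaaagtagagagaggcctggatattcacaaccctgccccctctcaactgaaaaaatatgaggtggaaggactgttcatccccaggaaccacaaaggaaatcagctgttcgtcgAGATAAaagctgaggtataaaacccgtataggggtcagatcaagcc
Fcer1a (chr1:173227230-173227479, minus strand): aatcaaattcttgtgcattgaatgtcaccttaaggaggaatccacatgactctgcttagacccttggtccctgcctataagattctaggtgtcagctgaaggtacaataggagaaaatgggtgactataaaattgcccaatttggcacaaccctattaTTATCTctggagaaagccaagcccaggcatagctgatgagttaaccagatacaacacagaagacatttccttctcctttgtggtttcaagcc
Ms4a2 (chr19:11623720-11623969, minus strand): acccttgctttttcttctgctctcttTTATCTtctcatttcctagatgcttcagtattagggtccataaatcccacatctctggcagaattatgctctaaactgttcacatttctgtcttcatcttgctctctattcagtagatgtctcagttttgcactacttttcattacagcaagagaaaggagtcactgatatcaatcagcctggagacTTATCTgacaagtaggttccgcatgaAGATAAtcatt
In Cpa3 the motif lies 46 to 41 bases before the start. In Fcer1a it lies 92 to 87 bases before it, on the opposite strand, and in Ms4a2 it occurs 3 times, at 224 to 219, 37 to 32 and 11 to 6 bases. Searched on both strands of the same 250 bases, AGATAA was present in 4 of the 7 genes with an entry, the fourth being Prss34 at 31 to 26 bases, and in 9.99% of 32851 promoters. A C/EBP motif, TTGCNNAA, was present in 1 of the 7 (Fcer1a) and in 9.56% of promoters. The MITF motif CATGTG was found in 2 of the 7 (Fcer1a and Prss34) and in 12.25% of promoters, and the RUNX motif TGTGGT in 3 of the 7 (Cpa3, Mcpt8 and Fcer1a) and in 14.05%. These are matches of letters, with no measurement of binding. Members were counted by gene and all promoters by entry, so nothing is read from these shares. Whether any of these motifs bears on the differences was not tested.

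Genes that act with these 8 were taken from 6 lists grouped by role, 93 genes of which 85 were measured. At the study's thresholds 5 of the 85 rose in Cebpa Δ/Δ HSCs (Ctse, Gzmb, Csf2rb2, Gata1 and Id2) and 1 fell (Tfec). Over all 19938 genes 1.57% rose and 0.617% fell, the shares to set beside this count and those of each list below. The lists were chosen with earlier results of these data known, so nothing is read from these counts. In limma 0 of the 85 passed the adjusted threshold and 10 had an unadjusted p under 0.05, as did 1492 of all 19938 genes. The median difference over the 85 was -0.01, and 53 of them had a mean level above that of the median gene.

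Among 10 other granule proteases 2 rose and 0 fell. Cathepsin E (Ctse), an aspartic protease known to take part in the maturation of carboxypeptidase A3 in mouse mast cells, measured 10.78, 9.84, 10.56 and 9.84 in Cebpa Δ/Δ HSCs and 7.50, 8.83 and 7.18 in Cebpa fl/fl HSCs. The groups were well apart, by 2.42 (SE 0.45), with adjusted p = 0.358 in limma (unadjusted 0.00135). Granzyme B (Gzmb), a cytotoxic protease found in mast cells and in T and NK cells, measured 6.16, 5.24, 6.61 and 5.11 in Cebpa Δ/Δ HSCs and 4.08, 4.93 and 4.31 in Cebpa fl/fl HSCs. Its groups did not overlap and differed by 1.34 (SE 0.42, adjusted p = 0.644 in limma), but the unadjusted p of 0.0174 became 0.0681 without Cebpa fl/fl 1 and 0.0567 without Cebpa fl/fl 3. Gzmb is also on the list of T and NK cell markers given further on. The chymases and tryptases closest to Cma1 and Tpsb2 (Mcpt1, Mcpt2, Mcpt4, Tpsab1 and Tpsg1) had mean log2 levels between 2.59 and 4.65 in either genotype and differences between -0.07 and 0.12. Cathepsin G (Ctsg), shared with neutrophil precursors, averaged 5.48 ± 0.57 in Cebpa Δ/Δ HSCs (SD, n = 4) and 7.36 ± 1.99 in Cebpa fl/fl HSCs (SD, n = 3), with a limma p of 0.0768 and an adjusted p of 0.688. Cathepsin H (Ctsh), with a difference of 0.41 (SE 0.14), stayed under 1.5-fold, and cathepsin C (Ctsc), which activates granule serine proteases, differed by 0.06 (SE 0.16).

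Of 9 genes for the granule matrix and its amines 0 passed the thresholds, and 7 had a mean level above that of the median gene. Serglycin (Srgn), the proteoglycan core of the granule, averaged 10.79 ± 0.13 in Cebpa Δ/Δ HSCs (SD, n = 4) and 10.98 ± 0.14 in Cebpa fl/fl HSCs (SD, n = 3). The vesicle fusion gene Vamp8 averaged 10.62 ± 0.22 in Cebpa Δ/Δ HSCs and 10.76 ± 0.27 in Cebpa fl/fl HSCs. Slc18a2, the vesicular transporter that loads histamine, differed by -0.44 (SE 0.19, limma p 0.0560, adjusted p = 0.667). Hs6st1, a sulfotransferase of heparan sulfate, was just under 1.5-fold with 0.58 (SE 0.16), and passed the thresholds with cyclic loess (0.59) and without Cebpa Δ/Δ 2 (0.66), Cebpa Δ/Δ 3 (0.61), Cebpa fl/fl 2 (0.62) or Cebpa fl/fl 3 (0.67).

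Of 10 genes for the γ chain of FcεRI and for signalling downstream of the receptor, 0 passed the thresholds. The γ chain Fcer1g, which many Fc receptors share, averaged 8.72 ± 0.53 in Cebpa Δ/Δ HSCs (SD, n = 4) and 8.73 ± 0.50 in Cebpa fl/fl HSCs (SD, n = 3), a difference of -0.01 (SE 0.35). The kinase Fyn differed by -0.49 (SE 0.22), the adaptor Lat2 by 0.54 (SE 0.25), the phospholipase Plcg1 by -0.32 (SE 0.20) and the adaptor Lcp2 by 0.05 (SE 0.25). Fyn passed the thresholds without Cebpa fl/fl 2 (-0.63, limma p 0.0434).

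Of 18 receptors and surface proteins 1 rose. Csf2rb2, the mouse-specific β chain of the interleukin 3 receptor, measured 7.49, 7.70, 7.15 and 7.71 in Cebpa Δ/Δ HSCs and 6.54, 6.70 and 7.09 in Cebpa fl/fl HSCs. Cebpa Δ/Δ 3 was only just above Cebpa fl/fl 3, and the difference was 0.74 (SE 0.19, limma p 0.00630, adjusted p = 0.507). Kit, the receptor for stem cell factor, on which mast cells depend and which was also part of the sort, averaged 10.09 ± 0.27 in Cebpa Δ/Δ HSCs (SD, n = 4) and 10.42 ± 0.04 in Cebpa fl/fl HSCs (SD, n = 3), a difference of -0.34 (SE 0.15, limma p 0.0568, adjusted p = 0.667). Its Cebpa Δ/Δ arrays all lay below its Cebpa fl/fl arrays, as in 2.46% of all genes. The gap was narrow, with Cebpa Δ/Δ 2 at 10.378 and Cebpa fl/fl 2 at 10.387. Il3ra, the α chain of the same interleukin receptor, differed by -0.26 (SE 0.12) and the granule membrane protein Cd63 by -0.03 (SE 0.12). The basophil and mast cell receptors Cd200r3, Mrgprb1 and Mrgprb2 were near the bottom of the scale, with means between 2.46 and 2.99 in either genotype.

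Of 15 genes for lipid mediators and cytokines 0 passed. Il4, a cytokine that basophils release, differed by -0.42 (SE 0.22), Il13 by -0.10 (SE 0.06) and Lif by -0.24 (SE 0.17). Single arrays moved these values: Il4 was -0.13 without Cebpa fl/fl 2 and -0.59, past the thresholds (limma p 0.0479), without Cebpa fl/fl 3, and Lif was -0.02 without Cebpa fl/fl 3. Alox5ap, needed for leukotriene synthesis, averaged 10.19 ± 0.26 in Cebpa Δ/Δ HSCs (SD, n = 4) and 10.29 ± 0.15 in Cebpa fl/fl HSCs (SD, n = 3). The chemokine Ccl4 differed by 0.16 (SE 0.22).

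Of 23 transcription factors 2 rose and 1 fell. Gata1, which acts in erythroid, megakaryocytic, mast and eosinophil cells, measured 8.62, 7.58, 8.58 and 8.10 in Cebpa Δ/Δ HSCs and 6.21, 6.90 and 6.99 in Cebpa fl/fl HSCs. The groups were apart by 1.52 (SE 0.31, limma p 0.00233, adjusted p = 0.412). Id2, an inhibitor of E proteins, measured 7.14, 6.48, 7.73 and 6.40 in Cebpa Δ/Δ HSCs and 4.71, 5.85 and 5.85 in Cebpa fl/fl HSCs. It too was higher on every Cebpa Δ/Δ array, by 1.47 (SE 0.43, limma p 0.0123, adjusted p = 0.622). Tfec, of the same family as MITF, averaged 7.98 ± 0.25 in Cebpa Δ/Δ HSCs (SD, n = 4) and 8.70 ± 0.34 in Cebpa fl/fl HSCs (SD, n = 3), a difference of -0.72 (SE 0.20, limma p 0.00945, adjusted p = 0.580), which shrank to -0.52 and under 1.5-fold without Cebpa fl/fl 1. Gata2, needed for mast cells and for HSCs, differed by -0.29 (SE 0.23), or -0.09 without Cebpa Δ/Δ 3, and Mitf by -0.04 (SE 0.09). Cebpe, a C/EBP factor of late granulocytes, differed by -0.32 (SE 0.09) and Lmo2, a partner of GATA factors, by -0.19 (SE 0.08), both under 1.5-fold.

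**Figure D2:**
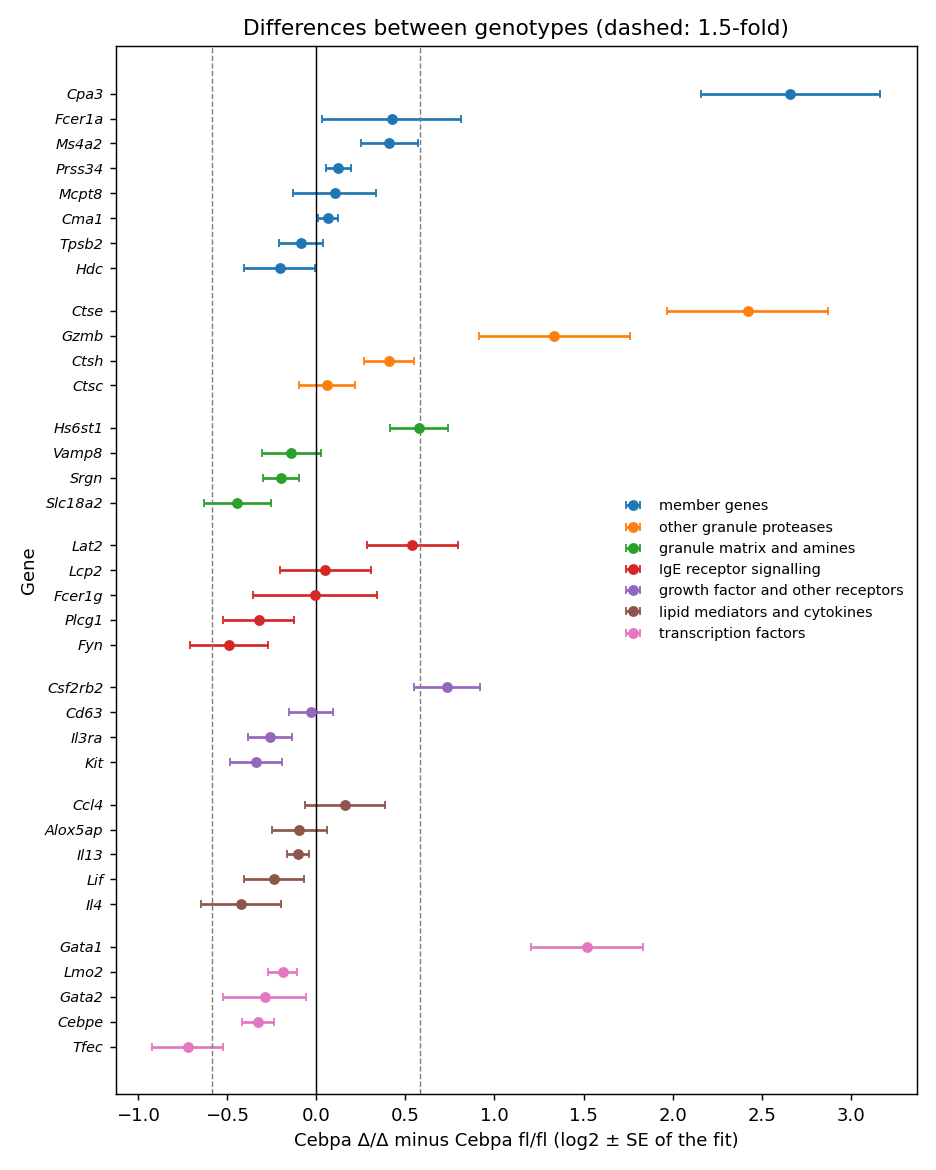
The horizontal axis is the log2 difference (Cebpa Δ/Δ minus Cebpa fl/fl) of each gene in rows, bars are the SE of the limma fit and dashed lines mark 1.5-fold. The 8 mast cell and basophil genes stand above the genes of the 6 role lists with the smallest p or the highest level. Cpa3 (2.66), Ctse (2.42), Gata1 (1.52) and Gzmb (1.34) stand to the right of the rest, while most other genes lie within 0.5 of 0.

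The values of Cpa3 over the 7 arrays were set beside those of every gene with a mean level above that of the median gene. The 5 most alike were Cd48 (Pearson r = 0.987), Jkamp (0.984), Ddias (0.982), Klf1 (0.977) and Alas2 (0.968), each over 7 arrays that share the difference in genotype. Cd48, whose protein the sort selected against, measured 8.15, 7.70, 8.82 and 6.40 in Cebpa Δ/Δ HSCs and 4.82, 5.61 and 4.62 in Cebpa fl/fl HSCs. As with Cpa3, Cebpa Δ/Δ 4 was the lowest of its group and Cebpa fl/fl 2 the highest of its own, and the difference was 2.75 (SE 0.58). Those arrays held the same places in all 5 genes. Klf1, an erythroid transcription factor, measured 8.93, 8.12, 8.91 and 7.77 in Cebpa Δ/Δ HSCs and 6.25, 6.92 and 5.80 in Cebpa fl/fl HSCs, and its difference was 2.11 (SE 0.39). Alas2, the erythroid enzyme of haem synthesis, differed by 2.20 (SE 0.35). The likeness need not reflect size, since Jkamp differed by only 0.18.

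**Figure D3:**
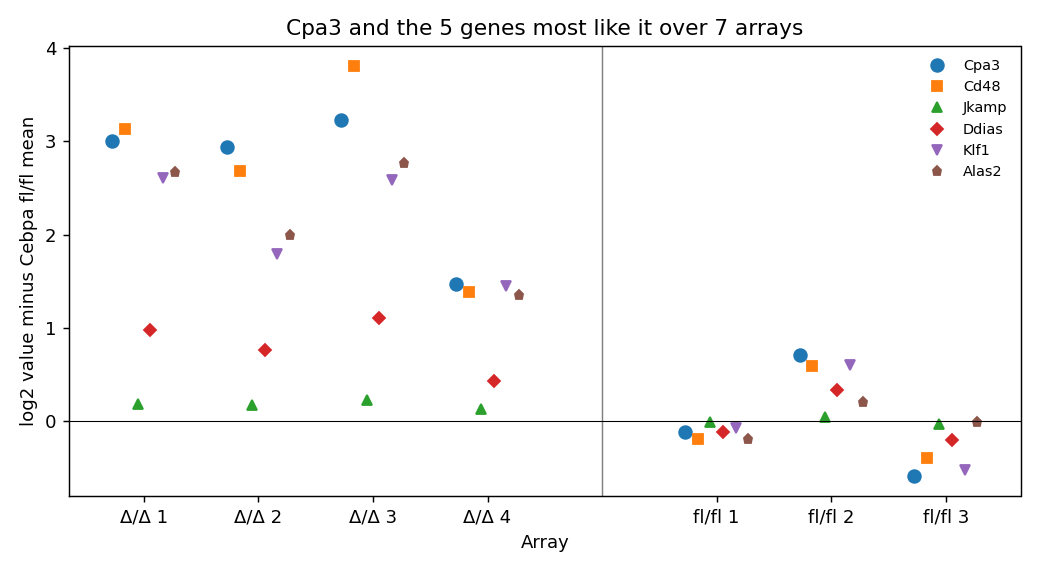
Log2 values of Cpa3 and the 5 genes most like it over 7 arrays are plotted for each array after subtracting each gene's mean in Cebpa fl/fl HSCs, with Cebpa Δ/Δ arrays on the left and the horizontal line at 0. Cpa3 and all 5 genes have their low point among Cebpa Δ/Δ arrays at Cebpa Δ/Δ 4, though Jkamp stays near 0 throughout.

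With the mean of each genotype subtracted, the correlation with Cpa3 was 0.940 for Cd48, 0.875 for Klf1, 0.740 for Ctse, 0.733 for Gzmb and 0.195 for Gata1, over the same 7 arrays. The 5 genes most alike on this measure were Sgce (0.991), Dolk (0.986), Utp11 (0.984), Cyp20a1 (0.984) and Psmb10 (0.982). None of these is in the 6 role lists. They were picked as the highest r among all genes above the median level, on only 7 arrays. Cebpa Δ/Δ 4 lay furthest from its group mean in Cpa3 and so weighs most on these correlations. Over the 7 arrays without that subtraction r was 0.952 for Ctse, 0.838 for Gata1, -0.574 for Gata2 and -0.748 for Kit.

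Markers of other cells moved on the same arrays. Over all genes the study's thresholds were passed by 1.57% in the higher direction and by 0.617% in the lower. Of 16 erythroid genes measured, 15 rose and 0 fell at the study's thresholds, and their summed linear intensity was 7838 to 13623 in Cebpa Δ/Δ HSCs and 2315 to 4502 in Cebpa fl/fl HSCs. Of 14 neutrophil genes 12 fell, with sums of 400.05 to 1188 in Cebpa Δ/Δ HSCs and 7079 to 17014 in Cebpa fl/fl HSCs, and of 7 genes of granulocyte-monocyte progenitors 2 fell (2020 to 3103 in Cebpa Δ/Δ HSCs, 2420 to 6273 in Cebpa fl/fl HSCs). Of 10 macrophage genes 4 rose (673 to 1312 in Cebpa Δ/Δ HSCs, 426 to 555 in Cebpa fl/fl HSCs) and of 12 T and NK cell genes 4 rose (870.04 to 1474 in Cebpa Δ/Δ HSCs, 522 to 959 in Cebpa fl/fl HSCs). Eosinophil genes gave 0 of 8 past the thresholds and sums of 192 to 231 in Cebpa Δ/Δ HSCs and 195 to 202 in Cebpa fl/fl HSCs. Of 10 megakaryocyte genes 1 rose, and 0 of 8 B cell genes and 0 of 14 HSC genes passed. The part of these cells in the difference of Cpa3 was not tested.

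The difference of Cpa3 stayed between 2.32 and 3.06 over 17 alternative settings, and between 2.37 and 3.06 when each array was left out in turn. Without both arrays that correlated least with the rest, Cebpa Δ/Δ 3 and Cebpa fl/fl 1, it was 2.41. The differences of the other 7 genes lay between -0.40 and 0.66 over their alternatives. Those of Mcpt8, Fcer1a, Hdc and Tpsb2 took both signs, and those of Ms4a2, Cma1 and Prss34 were positive or 0.

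**Figure D4:**
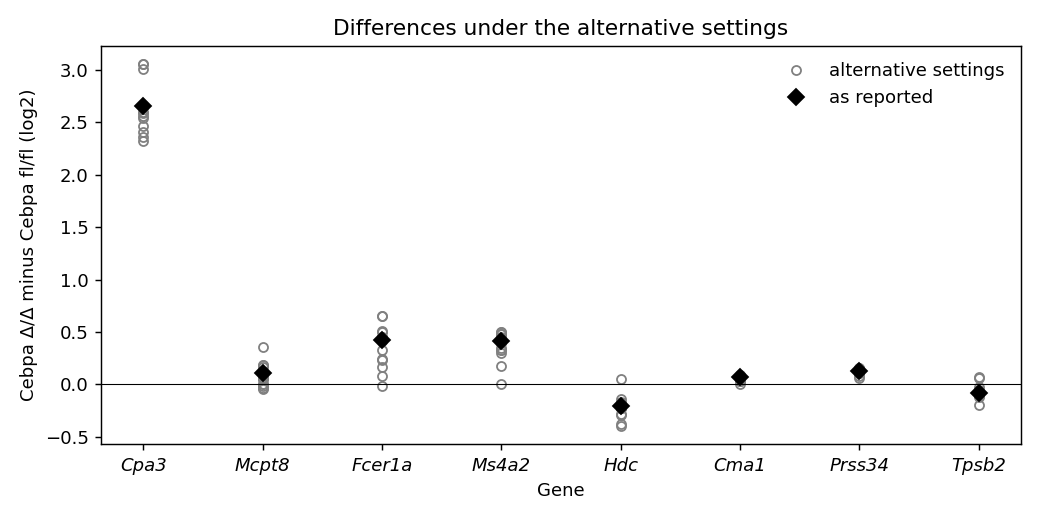
Open points are the log2 difference (Cebpa Δ/Δ minus Cebpa fl/fl) of each of the 8 mast cell and basophil genes under each alternative setting and with each array left out, and diamonds the value as reported. Cpa3 stays between 2.32 and 3.06, whereas the other genes lie around 0, between -0.40 and 0.66.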

How the data were processed

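RNA of 7 samples of sorted HSCs was amplified, labelled and hybridised to Mouse Gene ST arrays. The deposited intensity values are summaries of probe sets that the authors made by RMA (robust multichip averaging) with Partek Genomics Suite. The processing notes of the submitters also list affy. RMA brings the probes of all arrays to 1 distribution before they are summarised, and so hides a change in the amount of RNA per cell. The medians of the summarised values still differed slightly between arrays. Arrays have no read depth, and precision is limited by how many there are. The values were linear, from 1.51 to 9840, and log2 was taken without a pseudocount.

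Of 35556 probe sets, 21789 had 1 gene symbol, 1621 several and 12146 none here. 21698 symbols were updated through the Entrez number with RefSeq (GRCm38.p6). Of 999 genes with several probe sets the one with the highest mean was used, leaving 19938 genes. The number of value columns not used was 0.

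A linear model with genotype as its term was fitted to all arrays (limma 3.58.1 under R 4.3.3, moderated by eBayes), each difference being Cebpa Δ/Δ minus Cebpa fl/fl. P-values were adjusted over all genes by Benjamini-Hochberg. Because the study does not name its test for the arrays, its thresholds (p under 0.05, over 1.5-fold) were read from limma's p. The fit was tested on simulated data. SE is that of the fit. Limma's p-values set each difference against the spread between these samples. The members and the lists were chosen with earlier results of these data known. All 8 members were named, and from each role list the 3 genes with the smallest p and the 2 with the highest level, the 5 genes most correlated with Cpa3 before and after subtracting genotype means, and Cebpa. Other genes were named after their values were seen, because a count was small or to describe their class. Promoters came from the RefSeq table, which held 7 of the 8 members.

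The alternatives were cyclic loess, subtracting array medians, raising low values to the 25th percentile, genes above the median level, log2(value + 16), the mean over probe sets, array weights, unmoderated variance, the replicate number as a block and leaving out each array. Leaving out Cebpa Δ/Δ 3 and Cebpa fl/fl 1 together was chosen after seeing the data.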

Additional observations from a re-analysis of the deposited data

Results flagged for a closer look

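In 40 genes the 4 Cebpa Δ/Δ arrays were examined for 1 array far from the other 3, by its gap to the nearest array over the whole range, against Dixon's critical value for groups of this size. About 5% of groups pass by chance, and 4 of the 40 did. Cpa3 was low on Cebpa Δ/Δ 4, at 7.10, with a ratio of 0.834, and the other 3 arrays lay between 8.57 and 8.87. Without that array the difference of Cpa3 was 3.06. Cma1 was high on Cebpa Δ/Δ 3, at 3.88, where the other 3 arrays held 1 identical value, so its ratio was 1. Fyn and Plcg1, which act downstream of FcεRI, were low on Cebpa Δ/Δ 3, at 6.51 and 7.02, with ratios of 0.920 and 0.992. Cebpa Δ/Δ 3 was also the array with the highest Fcer1a, 5.09. No cause was tested.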

How the results depend on the processing

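As a description, without a test, the difference of Cpa3 was positive under all 17 alternatives. Its groups do not overlap, so leaving out arrays could not change the sign, and nothing is read from that count. Raising low values, keeping genes above the median level, averaging probe sets and unmoderated variance left the difference at 2.66. Of the named genes' alternatives, 0 reversed a call. Non-overlapping higher members numbered 1 with array medians subtracted, with cyclic loess, with low values raised and with genes above the median level, where Ms4a2 dropped out or was not tested. They numbered 2 to 3 with each array left out, which for any gene can only keep or add a lack of overlap. The share over all genes was not counted for these settings, so nothing is read from these numbers. Over all genes, 5 passed the adjusted threshold among genes above the median level, and 75 fell at the study's thresholds with log2(value + 16). Without Cebpa Δ/Δ 3 and Cebpa fl/fl 1 together 169 genes rose, and 0 of the related genes fell. With each array left out, 223 to 404 genes rose, 93 to 157 fell and 0 to 3 passed the adjusted threshold (3 without Cebpa fl/fl 3, 1 without Cebpa Δ/Δ 2 or 4). Related genes that rose then numbered 4 to 6, and those that fell 0 to 3 (0 without Cebpa fl/fl 1, 2 without Cebpa fl/fl 2, 3 without Cebpa fl/fl 3). Members called stayed at 1 higher and 0 lower. Gzmb lost its call without Cebpa fl/fl 1 (1.16), without Cebpa fl/fl 3 (1.27) and without Cebpa Δ/Δ 3 and Cebpa fl/fl 1 together (0.88), as did Tfec without Cebpa fl/fl 1 (-0.52) and in the last of these (-0.48). Without 1 array Fyn (Cebpa fl/fl 2), Il4 (Cebpa fl/fl 3) and Hs6st1 (4 of the 7 arrays) gained a call. The causes were not tested.

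The replicate numbers gave no sign of pairing the samples, though so few arrays cannot exclude it. Deviations of same-numbered arrays correlated at -0.07, 0.16 and -0.28, and 1 of 6 arrays correlated best with its own number. With the number as a block, which leaves out Cebpa Δ/Δ 4, the difference of Cpa3 was 3.06, 292 genes rose and 120 fell. Csf2rb2 then lost its call (0.67, limma p 0.0585) and Lat2 gained one (0.62, limma p 0.0356). All members but Cpa3 had low levels, where small changes are hard to see.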
